A study of Mus musculus with 21 samples.

Results

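Iron handling and haem breakdown in the kidney were followed through 10 genes that store, take up, move or export iron, break down haem or capture haemoglobin: Fth1, Ftl1, Tfrc, Trf, Slc11a2, Slc11a1, Slc40a1, Cp, Hmox1 and Hp. They were listed by symbol, found in the gene name column that the tables pair with Ensembl identifiers, and make up 10 of 20634 genes measured in both count tables. The mice were female apoE knockouts on a C57BL/6J background, the controls included, so that no group was wild type. They were 4 weeks old when the diets started and 18 weeks old at the end of 14 weeks of feeding. Con mice (n = 5) had chow, Ade mice (n = 6) had chow with 0.2% adenine, which injures the kidney, and Ade + IMC mice (n = 6) had 0.2% adenine with 0.06% iodomethylcholine (IMC), which blocks the bacterial step in the gut that releases trimethylamine. RNA came from frozen whole kidney, 1 library per mouse, and the Con + IMC mice were not analysed here.

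Iron travels in plasma on transferrin (Trf) and enters cells through the transferrin receptor (Tfrc), after which Slc11a2 (DMT1) carries it out of the endosome. Iron that is not used is held in ferritin, built of heavy (Fth1) and light (Ftl1) chains, or leaves by ferroportin (Slc40a1), the known cellular iron exporter, with the copper oxidase ceruloplasmin (Cp) loading it onto transferrin. Haem oxygenase 1 (Hmox1) opens the haem ring and frees its iron, haptoglobin (Hp) binds haemoglobin released from red cells, and Slc11a1 (NRAMP1) moves metal across the phagosome membrane of macrophages. The tubules of the kidney take iron and haem proteins back from the filtrate.

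Part of this system is regulated through the iron responsive element, a short hairpin in messenger RNA that the iron regulatory proteins (encoded by Aco1 and Ireb2) bind when iron is scarce. In a 5′ untranslated region such binding blocks translation, and in the 3′ untranslated region of Tfrc it stabilises the message. The elements are shown because a message read by RNA-seq can be steady while its translation is not, and because those of Tfrc bear on the RNA itself. A transcript of Slc11a2 is also known to carry such an element in its 3′ untranslated region, which the pattern used here did not find. A search of GENCODE M21 transcripts on GRCm38 (mm10) for a C, 5 bases, the loop CAGTG with A, C or T after it, and 5 bases that pair with the first 5 found 7 elements in 4 of the 10 genes. They are printed 5′ to 3′ as cDNA with the loop in capitals.
Fth1, 5′ untranslated region, chr19:9982732-9982761, plus strand: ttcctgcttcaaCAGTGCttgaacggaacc
Ftl1, 5′ untranslated region, chr7:45459778-45459807, minus strand: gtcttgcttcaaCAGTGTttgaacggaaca
Slc40a1, 5′ untranslated region, chr1:45925464-45925493, minus strand: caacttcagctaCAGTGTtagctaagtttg
Tfrc, 3′ untranslated region, chr16:32631219-32631248, plus strand: aattatcggaagCAGTGCcttccataatta
Tfrc, 3′ untranslated region, chr16:32631598-32631627, plus strand: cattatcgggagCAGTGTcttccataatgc
Tfrc, 3′ untranslated region, chr16:32631663-32631692, plus strand: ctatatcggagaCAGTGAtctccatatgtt
Tfrc, 3′ untranslated region, chr16:32631710-32631739, plus strand: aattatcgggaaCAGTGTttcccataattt
Of 21901 coding genes searched, 23 (0.105%) held a match in a 5′ and 100 (0.457%) in a 3′ untranslated region. The other 6 members held none by this pattern, which says only that these letters were not found.

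Total counts per mouse were 7716126 to 11680809 in Con, 5444833 to 7673215 in Ade and 5728589 to 8305968 in Ade + IMC. All 12 proximal tubule markers were present, with a summed level of 27790 to 35700 CPM in Con, 3028 to 14790 in Ade and 7006 to 19920 in Ade + IMC (CPM, the count relative to the library's TMM-scaled total). Apoe, the gene disrupted in every mouse, still gave 47 to 214 reads per mouse. Whether those reads lie outside its disrupted part was not tested, so this does not check the labels. Havcr1, which encodes the tubule injury protein KIM-1, had 1 to 7 reads in Con, 549 to 2104 in Ade and 192 to 1580 in Ade + IMC. The first digit of the mouse number (2, 3 or 4, of unstated meaning) was shared across groups.

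With adenine Hmox1, Slc11a1, Cp, Trf and Hp rose, while the uptake genes Tfrc and Slc11a2 fell. The ferritin light chain Ftl1 was called lower in Ade only narrowly (log2 fold change -0.25, edgeR adjusted p = 0.0988). Its confidence interval, -0.51 to 0.02, spanned both signs, and the call was lost in 9 of 18 alternatives. Fth1 (-0.24) and Slc40a1 (-0.22) had similar log2 fold changes in Ade and were not called. By edgeR's quasi-likelihood test at an adjusted p below 0.1, 5 of the 10 genes were higher and 3 lower in Ade than in Con. This has to be read against the whole kidney, where 67.3% of all genes tested were called, 35.1% higher and 32.2% lower. The groups did not overlap in 7 of the 10 members, and in 43.0% of all genes tested. The log2 fold changes of the members lay apart, 5 at -0.22 or below and 5 at 1.13 or above. Their median (0.46, against 0.02 over all genes) falls in the gap between them and describes no member. In bulk kidney RNA, fewer cells of a type and less RNA per cell cannot be told apart.

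The same 5 genes were higher and the same 3 lower in Ade + IMC than in Con, against 63.2% of all genes called, 30.9% higher and 32.3% lower. Groups did not overlap in 5 members here, and in 37.0% of all genes. Both comparisons share the Con mice. Between Ade + IMC and Ade, limma called 0 members and 0% of all genes, and the groups overlapped in all 10 members (0.225% of all genes did not overlap). The 0 genes compare with 988 at an unadjusted p below 0.05, with 37 called by DESeq2 and with 0 called by edgeR. When the first digit was fitted as a block, 0.905% of all genes were called, among them Tfrc (higher in Ade + IMC) and Cp (lower).

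**Figure D1:**
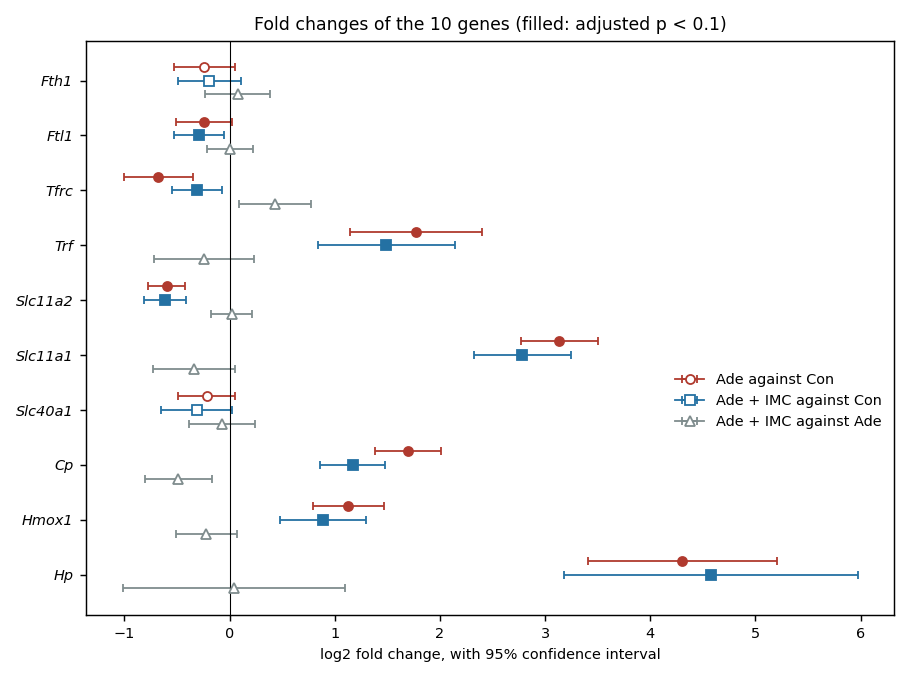
Log2 fold change of each gene with its 95% confidence interval in the 3 comparisons, filled where the adjusted p is below 0.1. Hp (4.31) and Slc11a1 (3.13) rose most in Ade, Tfrc and Slc11a2 lay below 0 in both comparisons with Con, and no Ade + IMC against Ade marker is filled.

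Ferritin carried by far the most RNA of the members. Per kilobase of exon, the mean level in Con was 934 RPKM (CPM divided by the exon length) for Fth1 and 117 for Ftl1, against 18.0 for Slc11a2, 15.3 for Cp, 12.03 for Hmox1, 11.7 for Tfrc and 11.2 for Slc40a1. Trf (1.47), Slc11a1 (1.26) and Hp (0.489) were the lowest. In Ade the order behind ferritin changed to Cp (48.8), Hmox1 (25.9), Slc11a2 (11.7), Slc11a1 (10.9), Slc40a1 (9.48), Hp (9.47), Tfrc (7.22) and Trf (4.91). By this length the first 3 members behind ferritin in Con (Slc11a2, Cp, Hmox1) were also the first 3 in Ade, in another order. Exon length here merges all annotated exons of a gene, 9566 bases for Cp, 9000 for Slc40a1 and 1751 for Hmox1. The order behind ferritin depends on that choice, and lengths of single transcripts were not used.

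Fth1 (ENSMUSG00000024661, chr19:9980598-9985098) encodes the ferritin chain that oxidises iron for storage. Its level in the 5 Con mice was 2860, 2894, 3177, 3281 and 3988 CPM. Ade mice had 2318 to 2978 CPM (median 2731) and Ade + IMC mice 2235 to 3408 (median 2846). The groups overlapped, with 3 Ade and 3 Ade + IMC mice below every Con mouse. The log2 fold change was -0.24 (95% interval -0.53 to 0.05) in Ade and -0.20 (-0.50 to 0.10) in Ade + IMC, both not called by edgeR (adjusted p = 0.137 and 0.246). The first of these was called lower in 3 of 18 alternatives, by DESeq2 (-0.27, adjusted p = 0.0337), with the digit as a block (-0.26, edgeR adjusted p = 0.0975) and without Ade mouse 407 (-0.28, edgeR adjusted p = 0.0898).

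Ftl1 (ENSMUSG00000050708, chr7:45457944-45459884, minus strand) encodes the chain that helps the mineral core form. Con mice had 133, 136, 144, 180.5 and 190 CPM. Ade mice had 110 to 162 (median 128) and Ade + IMC mice 109 to 151 (median 129), again overlapping Con. The log2 fold change was -0.25 ± 0.12 (SE) in Ade and -0.29 ± 0.11 in Ade + IMC, at edgeR adjusted p values of 0.0988 and 0.0394. The confidence interval was -0.51 to 0.02 in Ade, spanning both signs, and -0.53 to -0.05 in Ade + IMC. The count itself is uncertain, since 90.6% of the 50-base windows of its transcript occur in 17 other genes, ferritin pseudogenes among them, while Fth1 shares 4.01%. The ratio of Ftl1 to Fth1 counts was 0.0428 to 0.0550 in Con, 0.0382 to 0.0591 in Ade and 0.0389 to 0.0507 in Ade + IMC, so both chains kept overlapping proportions. The first call was lost in 9 of 18 alternatives, among them upper-quartile scaling (-0.19, adjusted p = 0.185) and leaving out Con mouse 302 or 403 or Ade mouse 207, 208, 308, 408 or 409. The second was lost in 5 of 18, among them upper-quartile scaling (-0.21, adjusted p = 0.126) and leaving out Con mouse 302 or 403 or Ade + IMC mouse 412.

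Tfrc (ENSMUSG00000022797, chr16:32608920-32632794), the receptor through which cells take up transferrin-bound iron, was lower with adenine. The Con mice had 60.8, 71.4, 72.2, 78.2 and 79.8 CPM. Ade mice had 30.2 to 56.0 (median 48.7), all below every Con mouse, and Ade + IMC mice had 49.9 to 73.4 (median 57.3), 4 of them below every Con mouse. The lowest Ade values were those of mice 308 (30.2) and 208 (31.8). Tfrc fell by 0.68 on the log2 scale in Ade (1.60-fold lower, edgeR adjusted p = 0.00158) and by 0.31 in Ade + IMC (adjusted p = 0.0291). The smaller fall was not called with upper-quartile scaling, in a fit of all 17 mice (adjusted p = 0.134) or without the 3 Ade + IMC mice that had over 10 CPM of Adipoq, described below (adjusted p = 0.114).

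Trf (ENSMUSG00000032554, chr9:103204001-103230444, minus strand), the plasma iron carrier that is made mainly by the liver, was scarce in Con kidney, at 1.92, 4.04, 5.42, 5.72 and 7.32 CPM. It reached 10.3 to 20.2 CPM in Ade (median 17.8) and 9.52 to 20.8 in Ade + IMC (median 12.3), above every Con mouse in both groups. The fold was 3.42 (95% interval 2.21 to 5.28) in Ade and 2.81 (1.79 to 4.40) in Ade + IMC, with edgeR adjusted p values of 0.000157 and 0.000937. Trf shares 2108 exon bases with the annotated gene Gm20425 on the same strand, and 79.8% of the 50-base windows of its transcript occur in it. Its count is uncertain for that reason.

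Slc11a2 (ENSMUSG00000023030, chr15:100387898-100425072, minus strand), the endosomal and apical iron importer DMT1, fell to a similar level in both adenine groups. The Con mice had 103, 110, 111, 121 and 125.5 CPM. Ade mice had 64.0 to 83.9 (median 75.6) and Ade + IMC mice 66.0 to 95.1 (median 72.6), each of them below every Con mouse. The log2 fold changes were -0.60 (-0.77 to -0.42) and -0.61 (-0.81 to -0.42), with edgeR adjusted p values of 3.53e-05 and 8.85e-05. Some 402 exon bases are shared with Gm5475 on the opposite strand. The falls of Tfrc and Slc11a2 stood beside a fall of all 12 proximal tubule markers in both comparisons with Con (median log2 fold change -2.0 in Ade and -1.49 in Ade + IMC). Of 7 loop and distal tubule markers, 5 fell and 1 rose in Ade and 4 fell in Ade + IMC, with a summed level of 8006 to 12170 CPM in Con, 3872 to 8110 in Ade and 6326 to 10390 in Ade + IMC. The part of either set of tubule cells in the falls of Tfrc and Slc11a2 was not tested.

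Slc11a1 (ENSMUSG00000026177, chr1:74375195-74386062), the relative of DMT1 found in phagosomes, had 3.27, 4.33, 4.88, 5.15 and 5.72 CPM in Con. It had 28.7 to 48.8 in Ade (median 40.1) and 19.6 to 46.0 in Ade + IMC (median 32.4). No adenine-fed mouse came near the Con range. The fold was 8.77 (6.81 to 11.3) in Ade and 6.88 (5.0 to 9.47) in Ade + IMC, at edgeR adjusted p values of 1.40e-08 and 6.08e-07, and 3.31% of all genes changed more in Ade. The 2 relatives therefore moved in opposite directions, and the ratio of Slc11a1 to Slc11a2 counts went from 0.0296 to 0.0471 in Con to 0.362 to 0.762 in Ade and 0.249 to 0.698 in Ade + IMC.

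Macrophage markers moved with Slc11a1. All 13 of the 14 listed that the tables hold were higher in both comparisons with Con, with a summed level of 548 to 614 CPM in Con, 3266 to 5659 in Ade and 2818 to 5902 in Ade + IMC. Cd74 made up the largest part of this sum, at a mean of 295.5 CPM in Con, 2143 in Ade and 1956 in Ade + IMC. Among the adenine-fed mice, 311 and 308 had the highest sums (5902 and 5659), with Slc11a1 at 46.0 and 48.8 CPM. Mouse 412 had the lowest sum (2818) and the lowest Slc11a1 of these mice (19.6). How much of the rise of Slc11a1 came with more macrophages was not tested.

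**Figure D2:**
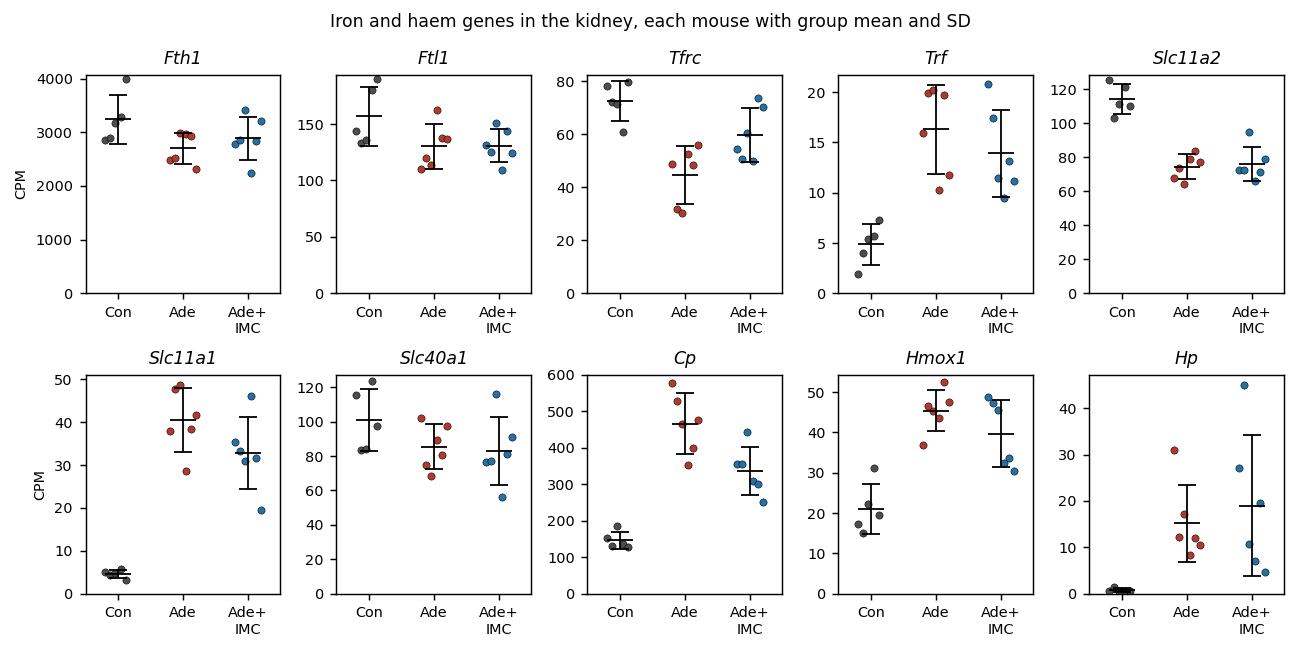
CPM of each gene in each mouse (points), with the group mean and SD (bars), by diet group, each axis starting at 0. All 6 Ade mice lie above every Con mouse for Trf, Slc11a1, Cp, Hmox1 and Hp and below every Con mouse for Tfrc and Slc11a2, while Fth1, Ftl1 and Slc40a1 overlap.

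Slc40a1 (ENSMUSG00000025993, chr1:45908068-45926523, minus strand), the iron exporter ferroportin, had 83.6, 84.1, 97.6, 116 and 124 CPM in Con. Ade mice had 68.3 to 102 (median 84.8) and Ade + IMC mice 56.5 to 116 (median 78.9). The groups overlapped. The log2 fold change of -0.22 (-0.49 to 0.05) in Ade and of -0.31 (-0.65 to 0.02) in Ade + IMC were not called (edgeR adjusted p = 0.151 and 0.105). The first was called lower without Con mouse 202 (-0.28, adjusted p = 0.0841), Con mouse 301 (-0.28, 0.0878) or Ade mouse 207 (-0.27, 0.0821), and the second without Con mouse 202 (-0.38, 0.0743), Con mouse 301 (-0.38, 0.0764) or Ade + IMC mouse 310 (-0.43, 0.0187). The ratio of Slc40a1 to Tfrc counts, exporter to importer, was 1.16 to 2.04 in Con, 1.66 to 2.35 in Ade and 1.10 to 1.92 in Ade + IMC. These ranges overlapped with all mice of a group pooled. Within each first digit every Ade mouse had a higher ratio than every Con and every Ade + IMC mouse. Digit 3 holds 1 Ade mouse, and the separation was seen with the values in view and not tested.

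Cp (ENSMUSG00000003617, chr3:19957054-20009145), the copper oxidase that works with ferroportin and an acute phase protein of plasma, was the most abundant of the risers. The Con mice had 129, 132, 135, 151 and 185 CPM. Ade mice had 352 to 577 (median 471) and Ade + IMC mice 252 to 442 (median 332), with no overlap with Con. The fold was 3.24 (2.60 to 4.03) in Ade and 2.25 (1.82 to 2.79) in Ade + IMC, with edgeR adjusted p values of 5.92e-07 and 2.18e-05. Heph, a membrane-bound copper oxidase related to Cp, rose by 0.33 on the log2 scale in Ade (edgeR adjusted p = 0.0690). App, the amyloid precursor protein, which was listed with the oxidases, fell by 0.32 (edgeR adjusted p = 0.0365). Cp shares 108 exon bases with Hps3 on the opposite strand.

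Hmox1 (ENSMUSG00000005413, chr8:75093621-75100589), the inducible haem oxygenase, had 15.2, 17.4, 19.5, 22.2 and 31.2 CPM in Con. Ade mice had 36.9 to 52.4 (median 45.9), all above Con. Ade + IMC mice had 48.8, 47.4 and 45.6 (mice 211, 212 and 310) and 33.8, 32.4 and 30.3 (mice 410, 311 and 412), and the last of these lay inside the Con range. The fold was 2.19 (1.73 to 2.77) in Ade and 1.85 (1.39 to 2.46) in Ade + IMC, with edgeR adjusted p values of 4.14e-05 and 0.00147. Hmox2, the constitutive form, fell by 0.20 on the log2 scale in each comparison with Con (adjusted p = 0.0404 and 0.0264).

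The biliverdin reductases that act after haem oxygenase went in opposite directions. Blvra, at a median of 63.0 CPM in Con, 33.6 in Ade and 35.6 in Ade + IMC, fell by 0.89 on the log2 scale in Ade (edgeR adjusted p = 2.64e-05). Blvrb, at 14.6, 23.9 and 28.1 CPM, rose by 0.69 (adjusted p = 0.0289). Bach1, the haem-sensing repressor of Hmox1, and Nfe2l2, which encodes its activator NRF2, were not called in Ade, at -0.18 (edgeR adjusted p = 0.238) and -0.0037 (adjusted p = 0.975). Both were called lower in Ade + IMC than in Con, at -0.31 (edgeR adjusted p = 0.0341) and -0.19 (adjusted p = 0.0464). The red cell markers, which include the globins, were lower in the adenine groups, as 6 of 6 tested fell in each comparison with Con. Their summed level was 323 to 340 CPM in Con, 41.7 to 156 in Ade and 124 to 302 in Ade + IMC. Slc4a1, with a mean of 111 CPM in Con, 35.8 in Ade and 58.0 in Ade + IMC, is expressed by intercalated cells of the kidney as well. Epb42 was too low to be tested against Con, at a mean of 0.550 CPM in Con, 1.66 in Ade and 1.15 in Ade + IMC.

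Hp (ENSMUSG00000031722, chr8:109575128-109579172, minus strand), the haemoglobin-binding plasma protein, had the widest change. It had 5 reads in 4 Con mice and 10 in mouse 202, that is 0.505, 0.649, 0.653, 0.677 and 1.44 CPM. Ade mice had 8.39 to 31.0 CPM (median 12.1) and Ade + IMC mice 4.69 to 45.0 (median 15.1), all above Con. The fold was 19.8 (10.6 to 37.0) in Ade and 23.9 (9.09 to 62.8) in Ade + IMC, at edgeR adjusted p values of 1.80e-06 and 6.30e-05, and 1.23% of all genes changed more in Ade.

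The spread of Hp within the adenine groups ran with adipocyte genes. Of the 6 adipocyte markers listed, 5 were in the tables, and their summed level was 40.6 to 90.7 CPM in Con, 48.9 to 318 in Ade and 42.6 to 1253 in Ade + IMC. Most of the Con sum was Fabp4, at a mean of 55.8 CPM, while Cfd, the next highest, had a Con mean of 2.3 CPM. Adipoq, which encodes the fat cell hormone adiponectin, exceeded 10 CPM in mice 207 (17.3), 211 (19.3), 212 (68.4) and 410 (11.9), the mice with the 4 highest Hp levels (31.0, 27.1, 45.0 and 19.6 CPM). Without these 4 mice Hp was 8.39 to 17.2 CPM in the other 5 Ade mice and 4.69 to 10.6 in the other 3 Ade + IMC mice, still above every Con mouse, with log2 fold changes of 3.97 (edgeR adjusted p = 1.98e-07) and 3.26 (0.000152). Adipoq had 0 reads in mice 407, 408 and 310, which allows up to 3 counts or 0.421 CPM for counting error, and their Hp was 8.39, 11.98 and 10.6 CPM. The 5 members called higher in both comparisons with Con were also called without the 4 mice. The mice were set aside after their values were seen, and the part of adipocytes in Hp was not tested.

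**Figure D3:**
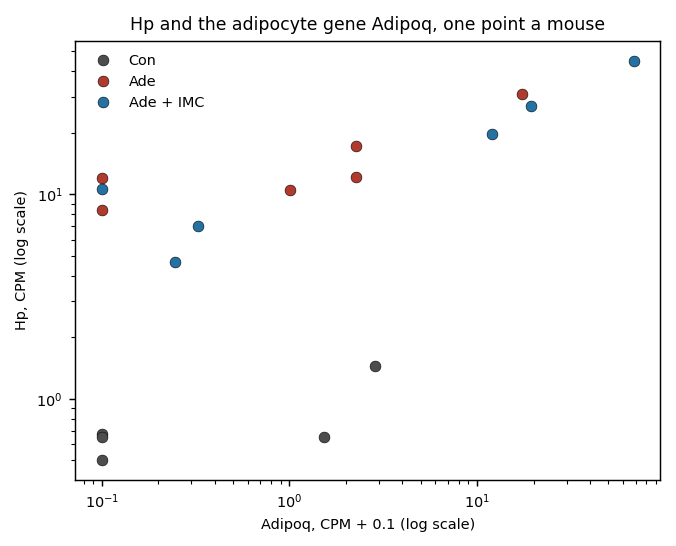
Hp against Adipoq in each mouse, in CPM on log axes, with 0.1 added to Adipoq so that 0 can be drawn. Hp is highest in the 4 mice with the most Adipoq, and the adenine-fed mice with no Adipoq reads still lie above all Con mice in Hp.

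Hp, Trf and Cp are also made by the liver, and Hp by neutrophils. Of 9 hepatocyte markers tested, 5 were higher and 2 lower in Ade. The fibrinogen genes Fga, Fgb and Fgg rose (log2 2.08, 3.03 and 3.81), as did Ttr (1.97) and Serpina1a (2.24), which encode the plasma proteins transthyretin and an alpha-1 antitrypsin. Alb (albumin) and Apob (apolipoprotein B) fell, by 1.39 and 1.79 on the log2 scale. The summed level of the 11 hepatocyte markers in the tables was 558 to 724 CPM in Con, 675 to 900.0 in Ade and 368 to 926 in Ade + IMC, and the part of liver RNA in Hp, Trf and Cp was not tested. Neutrophil markers were low, with a summed level of 1.44 to 3.38 CPM in Con, 20.97 to 41.1 in Ade and 12.4 to 49.6 in Ade + IMC, and all 3 tested were higher in Ade. The part of neutrophils in Hp was not tested.

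The question of whether IMC alters these genes in adenine-fed mice is addressed by Ade + IMC against Ade. In limma on log2(normalized count + 1), the smallest p values were those of Cp, with a log2 fold change of -0.49 (95% interval -0.81 to -0.17, adjusted p = 0.706), and of Tfrc, with 0.43 (0.09 to 0.78, adjusted p = 0.711). Slc11a1 followed with -0.34 (-0.73 to 0.06) and Hmox1 with -0.22 (-0.51 to 0.07). The intervals of Slc11a2 (-0.18 to 0.22), Ftl1 (-0.22 to 0.22), Slc40a1 (-0.39 to 0.24) and Fth1 (-0.23 to 0.39) were narrower than those of Trf (-0.72 to 0.24) and Hp (-1.02 to 1.10). The estimate for Hp, 0.04, turned negative in 7 of 22 alternatives, reaching -0.73 without the 4 mice with over 10 CPM of Adipoq, and was not called in any of the 22.

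With the digit as a block, Cp was called lower in Ade + IMC at -0.55 (-0.79 to -0.31, limma adjusted p = 0.0627) and Tfrc higher at 0.52 (0.27 to 0.76, limma adjusted p = 0.0883). On the recovered reads with the same block, edgeR called Cp at -0.56 (adjusted p = 0.0828) and not Tfrc. Within digits 2, 3 and 4 the difference in mean log2 level was -0.64, -0.35 and -0.58 for Cp. For Tfrc it was 0.40, 0.84 and 0.44. Within each digit every Ade + IMC mouse had less Cp and more Tfrc, in CPM, than every Ade mouse. Cp and Tfrc were looked at because their p values were the smallest of the members. The share of all genes that separate in this way was not counted, so the separation adds nothing to the calls. Slc11a1 was lower within each digit as well, by -0.32, -0.38 and -0.54, but was not called (-0.43, limma adjusted p = 0.227). Hmox1 changed sign between digits, at 0.21, -0.25 and -0.60. Digit 3 holds 1 Ade mouse.

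**Figure D4:**
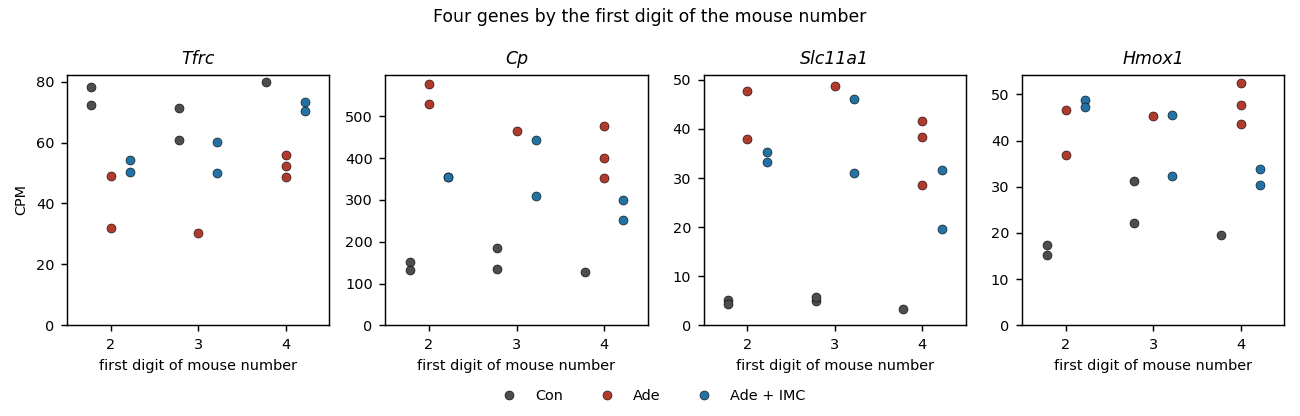
CPM of the 4 members with the smallest unadjusted p values in Ade + IMC against Ade, by the first digit of the mouse number and diet group, 1 point per mouse, each axis starting at 0. Within each digit the Ade + IMC mice lie above the Ade mice for Tfrc and below them for Cp, whereas Hmox1 is higher in Ade + IMC for digit 2 and lower for digit 4.

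Red cell markers moved in the same comparison. With the block, 5 of 7 tested were higher in Ade + IMC, among them Hbb-bs, a beta globin, at a log2 fold change of 1.73 (limma adjusted p = 0.0426), and Alas2, the red cell enzyme that starts haem synthesis, at 1.63 (0.0404). Without the block 0 were called, with limma adjusted p = 0.601 for both of these genes. Tubule markers had positive median log2 fold changes with the block, 0.55 for the proximal tubule (0 of 12 called) and 0.43 for the loop and distal tubule (0 of 7 called). The part of blood or of tubule cells in the member values was not tested.

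The other genes of iron and haem metabolism were read from 7 lists of 90 symbols, of which 85 had counts and 83 were tested in Ade against Con. More were lower than higher, with 16 higher, 50 lower and 17 not called, a median log2 fold change of -0.28 against 0.02 over all genes, and 60.2% lower against 32.2% of all genes. In Ade + IMC against Con 11 of 80 were higher (13.8%, against 30.9% of all genes) and 50 lower (62.5%, against 32.3%). In Ade + IMC against Ade 0 of 82 were called, and with the block 1 (Alas2, higher).

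Among the uptake genes 6 of 18 rose (33.3%) and 9 fell (50%) in Ade, against 35.1% higher and 32.2% lower over all genes. Lcn2, which encodes the siderophore-binding protein lipocalin 2 and a marker of tubule injury, went from a median of 2.87 CPM in Con to 316 in Ade and 235 in Ade + IMC (log2 6.96, edgeR adjusted p = 7.97e-08). Lrp2, the endocytic receptor megalin of the proximal tubule, went from 3922 to 578 and 1020 CPM (log2 -2.65, edgeR adjusted p = 5.22e-05), and is also on the proximal tubule list. Of the 5 storage turnover and chaperone genes tested, 0 rose and 4 fell (80.0%), the largest fall being that of Ncoa4, the cargo receptor that delivers ferritin to lysosomes, by 0.78 on the log2 scale (adjusted p = 0.000953).

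Of the hepcidin and iron sensing genes, 3 of 11 tested rose (27.3%) and 6 fell (54.5%) in Ade, against 35.1% higher and 32.2% lower over all genes. The messages of both iron regulatory proteins were lower, with Aco1 at a median of 510 CPM in Con, 258 in Ade and 265 in Ade + IMC (log2 -0.95, edgeR adjusted p = 2.23e-05) and Ireb2 at 133, 82.8 and 84.7 CPM (log2 -0.67, adjusted p = 0.000808). Bmp2, a ligand of the hepcidin pathway, rose by 1.32 and Tmprss6, the protease that restrains it, fell by 1.25 on the log2 scale. Hamp and Hamp2, the hepcidin genes, were not analysed here.

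Genes of haem scavenging, transport and breakdown went both ways in Ade, with 5 of 16 higher (31.2%) and 8 lower (50%). The share higher was near that of all genes (35.1%), of which 32.2% were lower. Lrp1, the receptor for haem bound to haemopexin, rose by 1.54 and Flvcr2, a haem and choline transporter, fell by 1.92 on the log2 scale. Cd163, the macrophage receptor for haptoglobin bound to haemoglobin, was barely detected, at 3 to 16 reads in Con and 11 to 21 in Ade (log2 1.02, edgeR adjusted p = 0.0220). Hpx, the haem carrier haemopexin, had 0 to 12 and 5 to 15 reads (log2 1.29, with a 95% interval of -0.01 to 2.59, adjusted p = 0.0788).

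Messages of haem synthesis and iron-sulfur cluster genes were mostly lower in Ade, where 32.2% of all genes were lower and 35.1% higher. In haem synthesis 8 of 11 fell (72.7%) and 1 rose (9.09%), led by Alas2 (-2.19) and by Tspo (0.42), a protein of the outer mitochondrial membrane. Alas2 is also on the red cell marker list, where all 6 genes tested were lower in Ade, among them the globins Hbb-bs (-2.28) and Hba-a1 (-2.03), and the part of red cells in its fall was not tested. Of 20 genes of mitochondrial iron and iron-sulfur cluster assembly, 14 fell (70.0%) and 0 rose, with a median log2 fold change of -0.44. Cisd1, an iron-sulfur protein of the outer mitochondrial membrane, fell most, by 0.96 on the log2 scale (edgeR adjusted p = 0.000322). The proximal tubule markers and 5 of 7 loop and distal tubule markers fell in the same comparison, and the part of tubule loss in the list counts was not tested.

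**Figure D5:**
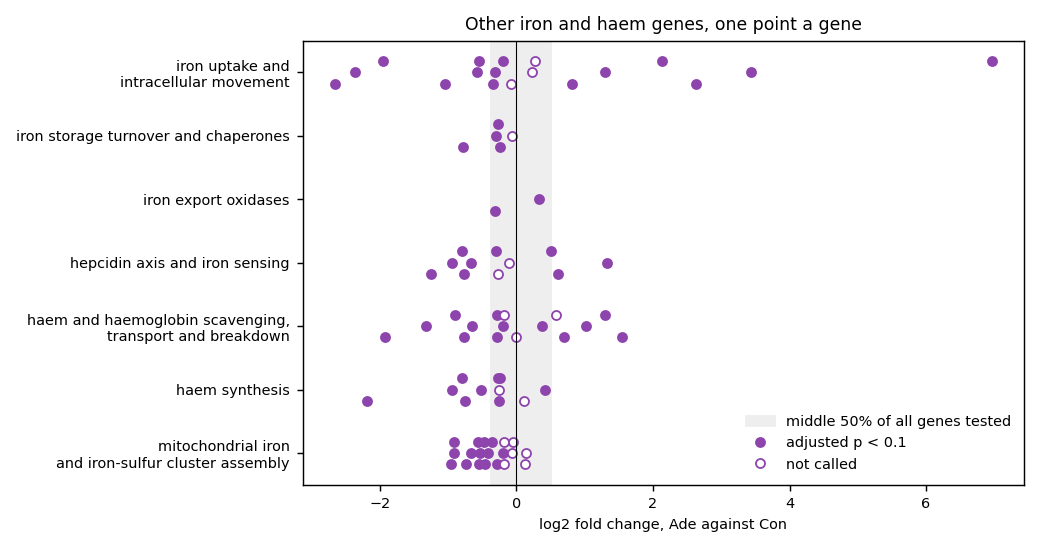
Log2 fold change in Ade against Con of each tested gene in the 7 lists, filled where the adjusted p is below 0.1, with the middle 50% of all genes tested (-0.37 to 0.50) shaded. Lcn2 (6.96) lies far to the right of the uptake list, and no gene of the iron-sulfur list is called higher.

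RefSeq promoters (GRCm38.p6, 250 bases before to 50 after the start) were matched for 5 of the 10 genes, Cp, Fth1, Ftl1, Slc11a1 and Tfrc. On both strands, TGACNNNGC, the core of the antioxidant response element, and CACGTG, the E-box, were in 0 of the 5, against 12.4% and 7.15% of all 32851 promoters. ACGTG, the core of the hypoxia response element, was in that of Tfrc and in 19.6% of all promoters.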

How the data were processed

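Kidney RNA-seq of 17 mice was analysed. Per the paper's methods, single-end reads were aligned to mm10 with STAR, and the submitters' notes name Trimmomatic 0.39, FastQC 0.11.8, Bowtie2 2.2.5, HTSeq 0.9.1 and DESeq2, without their roles. Neither the annotation release nor the strand setting is given in the sources used here. The authors deposited raw counts for Con and Ade mice, and for Ade and Ade + IMC mice a signal, the gene count divided by DESeq2's size factor. The deposited columns of the authors' own comparison (log2 fold changes, scores, p-values) were not used. Dividing by the step of 1 read gave whole reads for 100% of normalized values (tolerance 0.01), and for the Ade mice 0 of these reads disagreed with the raw table. At most 0.0126% of reads lay in genes outside both tables. Replicates of a group differed by more than sampling noise (the smallest chi-square over its degrees of freedom was 4.21).

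Ade against Con (14612 genes) and Ade + IMC against Con (14578 genes, on raw and recovered reads) were tested by the quasi-likelihood test of edgeR 4.0.16 with TMM scaling and its filter on low counts. Ade + IMC against Ade (14696 genes whose normalized counts averaged 10 or more) was tested by limma-trend (limma 3.58.1) on log2 of the normalized count plus 1. Benjamini-Hochberg adjusted p below 0.1 over all genes was the threshold. DESeq2 1.42.0 was an alternative, in R 4.3.3. CPM used TMM over 17 mice.

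Mice with the same first digit tended to deviate together. The correlation over genes of the Ade and Ade + IMC deviations was 0.360, 0.375 and 0.202 for digits 2, 3 and 4. Between unlike digits it ran from -0.473 to 0.164, the highest being Ade digit 4 with Ade + IMC digit 3. Blocked values therefore stand beside the calls they change. The members and gene lists were chosen with earlier results of these data known. The genes named are the 10 members, in each list the called genes with the largest rise and fall in Ade against Con, and Hamp, Hamp2, Hpx, Cd163, Blvra, Blvrb, Aco1, Ireb2, Ncoa4 and Lcn2. Havcr1 was named as a check of kidney injury and Apoe as the disrupted gene, whose reads do not check the labels. Hmox2, Bach1, Nfe2l2, Hbb-bs, Hba-a1, Slc4a1, Epb42, Adipoq, Alb, Apob, Ttr, Serpina1a and the fibrinogen genes were singled out with their values in view. The main test of each comparison, without the block, was also run on simulated data, whereas the blocked fits and DESeq2 were not. Alternatives changed the tool, scaling, filter, pseudocount, threshold, block and mice. Protein sequences were not used here.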

Additional observations from a re-analysis of the deposited data

Results flagged for a closer look

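Within each group, the highest or lowest mouse was compared with the spread of the rest by Dixon's ratio, for the 10 genes, the 3 count ratios and the 7 marker sums, 60 sets of values in all, of which chance flags about 1 in 20. In 4 sets a mouse stood apart. Mouse 202 had 1.44 CPM of Hp against 0.505 to 0.677 in the other Con mice, from 10 reads against 5. Its adipocyte marker sum was also the highest in Con (90.7 CPM). Mouse 403 had a macrophage marker sum of 614 CPM against 548 to 555 in the other Con mice. The adipocyte marker sum was 318 CPM in Ade mouse 207 against 48.9 to 90.8 in the rest, and 1253 CPM in Ade + IMC mouse 212 against 42.6 to 392. Mice 207 and 212 had the highest Hp of their groups.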

How the results depend on the processing

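Members called higher stayed at 5 in both comparisons with Con under every alternative run, and members called lower in Ade against Con ranged over 2 to 4. In Ade + IMC against Con, members called lower went from 3 to 1 with upper-quartile scaling and to 1 without the 3 Ade + IMC mice with over 10 CPM of Adipoq. In Ade + IMC against Ade, genes called went from 0 to 37 with DESeq2, to 133 with the digit as replicate block, to 104 with edgeR and the block, and to 1 without the Adipoq mice. The block called 1 member higher and 1 lower, and 1 lower with edgeR. It changed no other member's call apart from Fth1 in Ade against Con. The blocked edgeR fit and the fit without the Adipoq mice were chosen after seeing the data. Small differences turned direction in Ade + IMC against Ade without being called. Ftl1 (0.0025) became -0.0035 with DESeq2, -0.014 with edgeR, -0.0096 with TMM CPM and -0.076 without the Adipoq mice, Slc40a1 (-0.07) became 0.036 and Hp (0.04) -0.73 without them. Leaving out 1 mouse gave -0.044 to 0.068 for Ftl1, -0.047 to 0.054 for Slc11a2, -0.29 to 0.36 for Hp and -0.17 to 0.029 for Slc40a1. The cause was not tested. Counts under 10 reads, as for Hp in Con, limit its fold.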
